A study of Magallana angulata with 3 samples.

Results

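The adductor muscle of a triploid oyster sample (library T) was compared with that of a diploid sample (library DF) in the Fujian oyster, Magallana angulata. A gene entered the comparison when its mean over both libraries was at least 1 RPKM, a read count divided by the length of the gene and the depth of the library. This held for 14886 of the 28027 gene identifiers in the deposited tables, or 53.1%. The series holds 3 libraries, and the remaining one, from diploid oysters labelled DM, shows the levels of the same genes in another diploid sample. DM also entered the recovery of reads and gene lengths, a scaling over all 3 columns, and counts for the other pairs of libraries. Per the labels' protocols, DF and DM came from crosses between diploid parents, and T from the same parents with the second polar body retained by a chemical treatment, whose agent is not given in the sources used here. All animals had been kept for a year at equal temperature and food supply. The meaning of the letters F and M, and the number of animals behind each library, are not stated in the labels. No genotype, strain or other treatment is given for any group.

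The adductor muscle closes the shell. In bivalves it joins fast fibres, which snap the valves shut, with slow catch fibres, which hold them closed for long periods at little cost in energy. An oyster egg normally expels its second polar body after fertilisation, and when this is blocked the embryo keeps an extra maternal chromosome set and becomes triploid. Triploid oysters are farmed because they develop little functional gonad. Poly(A) RNA was sequenced, so the values describe the make-up of the messenger RNA. A level that rose equally for every gene would leave RPKM as it was, and fewer cells of a type cannot be told apart from less RNA per cell.

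The tables list genes by identifier only, and 0 of these identifiers could be matched to the RefSeq gene table of the species. No function, position or sequence is therefore given for any gene, and the tissue label was not checked against muscle markers. Each side has 1 library, so the comparison has no replicate error and no p-value. Differences are described by size. A gene is called higher or lower in T when it differed at least 2-fold from DF on log2(RPKM + 1), on which differences between low values appear smaller than they are.

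The read totals behind the values were recovered from the spacing of the RPKM values and came to 2137859 in T and 1805591 in DF. One read in a gene of 1 kb was worth 0.468 RPKM in T and 0.554 RPKM in DF. The 20 most abundant genes of each library took 42.2% of the reads in T and 35.2% in DF. Counting intervals are exact 95% intervals from the recovered reads. They express the precision of read counting, and leave out variation from animal to animal and from preparation to preparation.

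As deposited, 1517 of the 14886 genes were at least 2-fold higher in T (10.2% of the genes compared) and 2846 were at least 2-fold lower (19.1%). The other 10523 genes differed less than 2-fold, and 7434 of them, or 49.9% of all genes compared, lay within 1.5-fold. The median difference of T from DF was -0.25 on log2(RPKM + 1). The middle of the distribution, from its lower to its upper quartile, ran from -0.81 to 0.26, and its outer range, from the 5th to the 95th percentile, from -1.96 to 1.80. In all, 64.0% of the genes had a lower value in T than in DF.

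A shift common to most genes lay under these counts. The median ratio of T to DF, over the genes above 0 in both, was 0.845. Median-of-ratios scaling removes it by multiplying T by 1.09 and DF by 0.919. After this scaling, 1840 genes were higher (12.4%) and 2152 were lower (14.5%), and the median difference was -0.026. Genes higher in T made up 34.8% of the called genes as deposited and 46.1% after scaling. All 1517 genes that were higher as deposited were also higher after scaling, together with 323 more. Of the 2846 lower genes, 2152 remained lower and 694 fell below the 2-fold limit. The median absolute deviation around the median, 0.54 on log2(RPKM + 1), was the same on both scales to that precision.

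**Figure D1:**
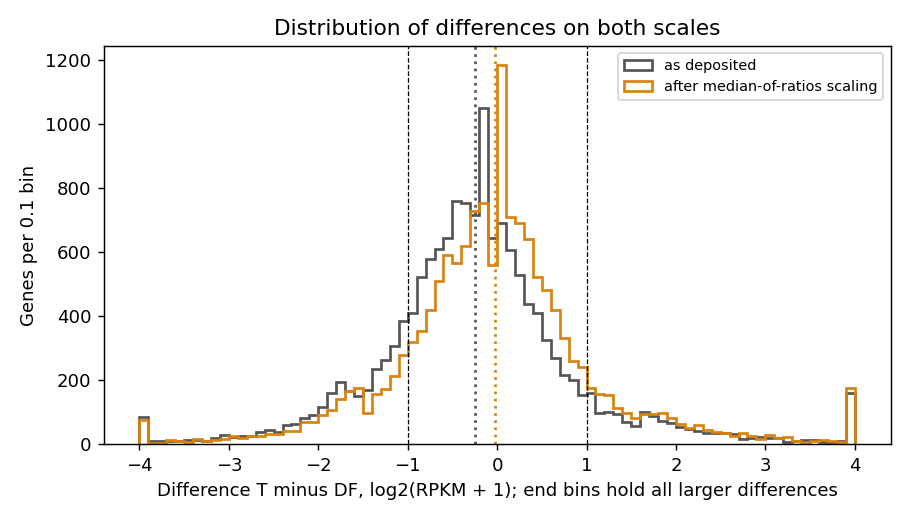
Number of genes (vertical axis, per 0.1 bin) by the difference T minus DF on log2(RPKM + 1), as deposited (grey) and after median-of-ratios scaling (orange). Dotted lines mark the medians, -0.25 and -0.026, and dashed lines the 2-fold limits.

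The most abundant gene differed in the opposite direction to this shift. CGI_10018876, which was chosen for its abundance after its values were seen, reached 155208 RPKM in DF, on 316954 reads, and 211346 RPKM in T, on 511017 reads. Its level in T was 1.36-fold higher (95% counting interval 1.36 to 1.37) and so was not called. Its share of the reads was 17.6% in DF and 23.9% in T, a gain of 6.35 percentage points. All other reads together went from 82.4% of the total in DF to 76.1% in T, a ratio of 0.923, while the median gene had a ratio of 0.845. The 1517 higher genes gained 7.31 percentage points of the reads. The 2846 lower genes changed by -7.49 points. The 10522 uncalled genes other than CGI_10018876 changed by -5.98 points.

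Part of the called genes passed the filter through a single library. Of the genes compared, 978 were under 1 RPKM in DF and 1302 were under 1 RPKM in T. A gene of this kind had to exceed 1 RPKM in the other library, and 736 of the 1517 higher and 910 of the 2846 lower genes belonged to them. Among the 12606 genes with at least 1 RPKM in both libraries, 781 were higher (6.20%) and 1936 lower (15.4%) as deposited, and 1073 (8.51%) and 1320 (10.5%) after scaling. At the limit of the filter, the last gene inside had 1.36 RPKM in T and 0.643 in DF, and the first gene outside had 0.720 in T and 1.28 in DF. Of the 13141 genes left out, 8715 had 0 in both libraries.

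The reads behind a gene set how far its difference could be read. The 95% counting interval of the ratio left out 1 in 857 of the higher genes (5.76% of the genes compared) and in 1872 of the lower genes (12.6%). After scaling, with the interval set against the median ratio, this held for 1111 higher (7.46%) and 1248 lower genes (8.38%). Among the 3117 genes with fewer than 10 reads in T and DF together, 18.6% were higher and 27.6% lower, but only 1.48% and 4.20% did so with an interval that left out 1. In the 4181 genes with at least 50 and under 200 reads, 291 were higher and 701 lower, and the interval left out 1 for all of these. From 200 to under 1000 reads (1586 genes), 105 were higher (6.62%) and 220 lower (13.9%). In the 386 genes with at least 1000 reads the directions were even, with 27 higher and 26 lower. After scaling, these deeply read genes held 33 higher and 19 lower genes, and their median difference was 0.15.

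**Figure D2:**
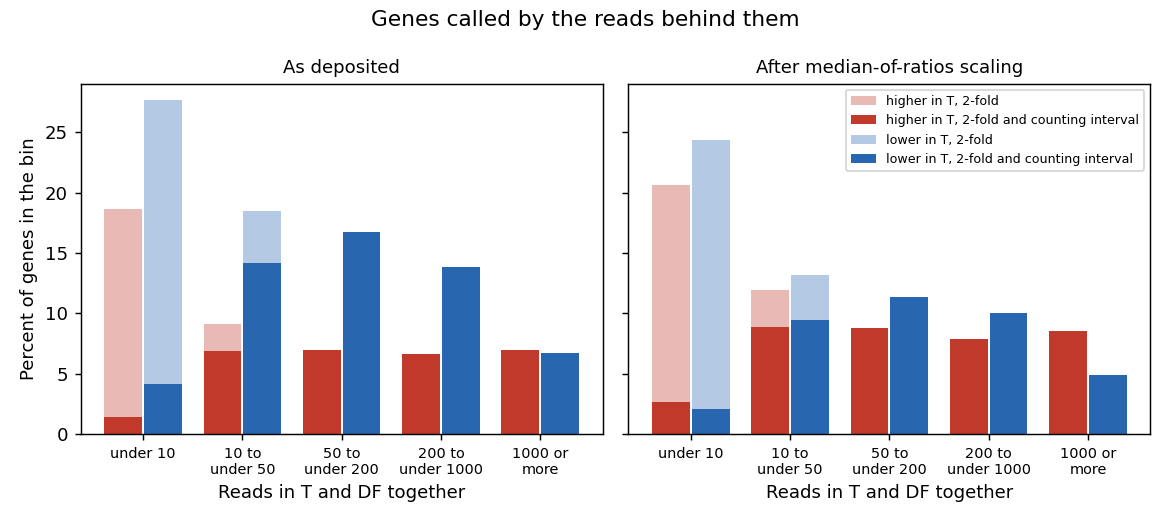
Percent of genes at least 2-fold higher (red) or lower (blue) in T, in bins of the reads in T and DF together, as deposited (left) and after median-of-ratios scaling (right). Pale bars show all such genes and full bars those whose 95% counting interval also left out no difference. The pale part is limited to genes under 50 reads.

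By level, the share of called genes fell from low to high genes. Of the 8201 genes with a mean between 1 and 10 RPKM, 1038 were higher and 1661 lower. Of the 5560 genes between 10 and 100 RPKM, 406 were higher and 1050 lower. The 978 genes between 100 and 1000 RPKM had 67 higher and 128 lower genes. The median difference was -0.20, -0.33 and -0.23 in these bands. The 147 genes that averaged 1000 RPKM or more had a median of -0.047 as deposited and of 0.20 after scaling.

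These 147 genes took 49.9% of the reads in DF and 56.5% in T, and most of them differed little. As deposited, 123 lay within 1.5-fold, 6 were at least 2-fold higher and 7 at least 2-fold lower. After scaling, 119 lay within 1.5-fold, with 7 higher and 5 lower. The order of the abundant genes was largely shared. Of the 20 most abundant genes of each library, 17 (85% of each list) were the same, as were 89 of the first 100 (89%) and 789 of the first 1000 (78.9%). Across all 14886 genes, Pearson's r on log2(RPKM + 1) was 0.82 and Spearman's rho 0.78. In the 1972 genes with at least 200 reads in T and DF together, they were lower, at 0.69 and 0.76. Genes are not independent replicates, and both libraries share gene lengths, so these describe the pair of libraries only.

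**Figure D3:**
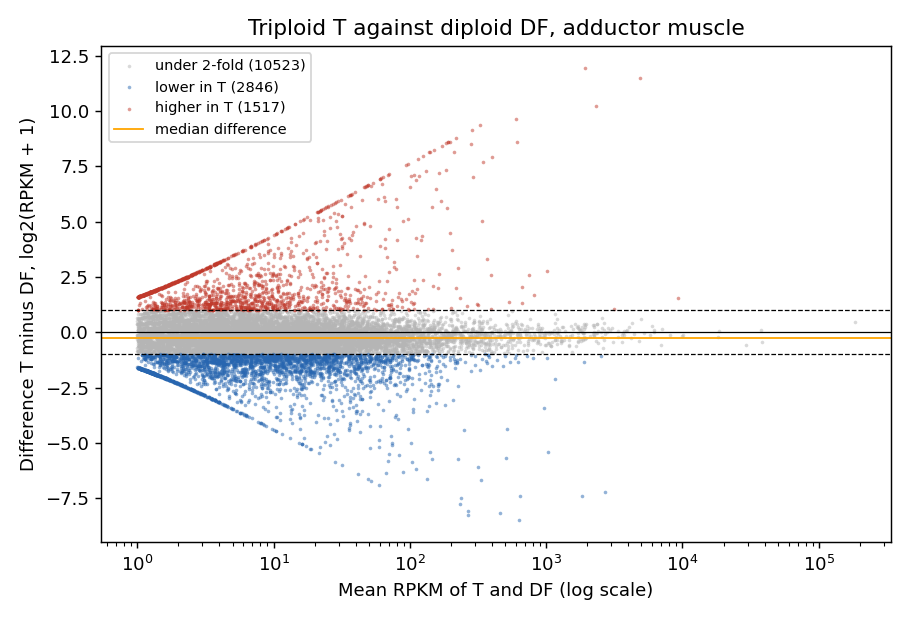
Difference T minus DF on log2(RPKM + 1) against the mean RPKM of both libraries (log axis) for the 14886 genes compared, with genes at least 2-fold higher in T in red (1517) and lower in blue (2846). The dashed lines are the 2-fold limits and the orange line is the median difference of -0.25. The curved edges are genes with 0 reads in one library.

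The called genes among the 147 differed by 2.06-fold to 4051-fold, apart from 1 gene with 0 reads in DF. On the higher side, the smallest difference was in a gene with 2056 RPKM in DF and 4236 in T, which was 2.06-fold higher (95% counting interval 1.96 to 2.17). The next had 4793 RPKM in DF and 13859 in T, 2.89-fold higher (2.83 to 2.95), and gained 1.25 percentage points of the reads, the next largest gain after CGI_10018876. Another had 256 RPKM in DF and 1764 in T, 6.90-fold higher (6.15 to 7.76). The level in DM was close to that in DF for the 2.06-fold and the 6.90-fold gene, at 2202 and 285 RPKM, and between DF and T for the 2.89-fold gene, at 9453 RPKM. The remaining 3 genes were at 0 to 2.95 RPKM in DF and at 3856 RPKM or more in T.

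CGI_10015188 showed the largest increase in RPKM of any called gene. Its 3 reads in DF made 2.40 RPKM, and its 14391 reads in T made 9714 RPKM. T was thus 4051-fold higher, with a 95% counting interval from 1386 to 19648 that reflects the 3 reads in DF. In T this gene took 0.673% of all reads. The other diploid library was not near 0, with 1898 RPKM in DM from 2707 reads.

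CGI_10021396 had the largest difference on log2(RPKM + 1), at 11.91. It had 0 reads in DF and 3856 RPKM in T (95% counting interval 3474 to 4269). Set against a floor of 3 reads in DF, it was 104-fold higher. The lower limit of the 95% counting interval of the ratio was less, at 84.5-fold. DM held 864 RPKM. Its recovered length was 45 nt, so its RPKM rests on only 371 reads in T and 80 in DM. The true length and the true reads may both be a multiple of the recovered ones. Another abundant gene of the same kind was at 4662 RPKM in T, 551 in DM and 2.95 in DF, on 11243, 1278 and 6 reads.

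On the lower side, CGI_10022468 showed the largest decrease in RPKM of any called gene. Its level was 5343 RPKM in DF, on 3647 reads, and 34.6 RPKM in T, on 28 reads, so that DF was 154-fold higher (95% counting interval 107 to 232). DM had 112 RPKM from 87 reads. CGI_10027582 had the largest negative difference, -8.47 on log2(RPKM + 1). Its level was 1259 RPKM in DF, on 2906 reads, and 2.56 RPKM in T, on 7 reads, and DF was 492-fold higher (238 to 1224). The level in DM was 11.8 RPKM, from 31 reads. In both of these genes DM was far closer to T than to DF.

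The other lower genes of at least 1000 RPKM were mixed. A gene with 3636 RPKM in DF and 20.8 in T was 175-fold higher in DF. Another had 2029 RPKM in DF and 46.7 in T, 43.5-fold higher in DF, and both were low in DM as well, at 83.9 and 47.3 RPKM. A gene with 1875 RPKM in DF and 438 in T, and 208 in DM, was 4.28-fold higher in DF. The smallest 3 differences were 2.51-fold, 2.27-fold and 2.07-fold. These 3 genes had 2337, 957 and 3455 RPKM in DM, against 2731, 1417 and 3399 in DF and 1089, 623 and 1639 in T. In 2 of the 3, those of 2.27-fold and 2.07-fold, the difference fell under 2-fold after scaling, at -0.94 and -0.81 on the log2 scale.

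Most called genes differed by less than 4-fold. As deposited, 916 of the higher genes lay between 2-fold and 4-fold, 340 between 4-fold and 8-fold, 107 between 8-fold and 16-fold, 53 between 16-fold and 32-fold and 101 at 32-fold or more. The lower genes numbered 2147, 491, 129, 36 and 43 in the same classes. The lower side therefore had more genes in every class up to 16-fold, and the higher side had more above it. After scaling the lower side had more genes only between 2-fold and 4-fold, at 1597 against 1149, and between 4-fold and 8-fold the counts were 385 lower and 395 higher genes. At 32-fold or more the ratio stood at 101 higher to 43 lower genes, and after scaling at 106 to 36.

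The 154 genes at least 16-fold higher in T (1.03% of the genes compared) took 3.49% of the reads in T and 0.0192% in DF. Their median level was 73.5 RPKM in T and 0 in DF, and 132 of them had at most 3 reads in DF. In T, 123 of the 154 had at least 50 reads. The lowest had 15.4 RPKM, close to the least that a 16-fold call on log2(RPKM + 1) allows. The levels and read shares in T and DF given here follow in large part from that limit. In DM they took 0.758% of the reads, with a median of 15.7 RPKM, and 6 had 0 reads. The 79 genes at least 16-fold lower in T (0.531%) took 1.97% of the reads in DF and 0.0229% in T. Their median level was 83.6 RPKM in DF, 1.24 in T and 2.29 in DM. After scaling, 163 genes (1.09%) were at least 16-fold higher and 70 (0.47%) at least 16-fold lower.

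**Figure D4:**
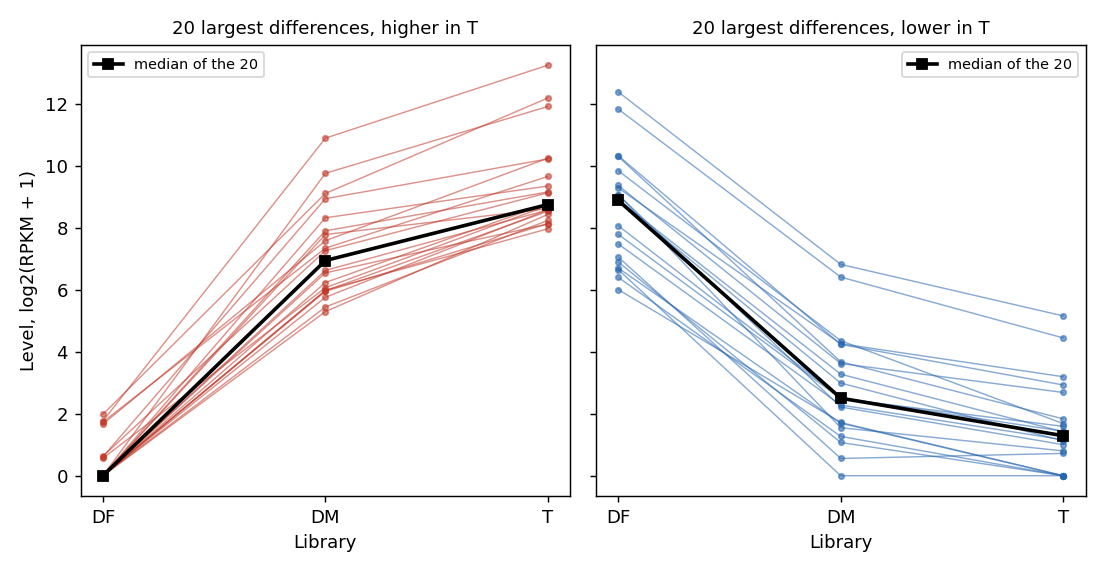
Levels on log2(RPKM + 1) in DF, DM and T for the 20 genes with the largest difference in each direction between T and DF. Each thin line joins the values of a gene and the black line their median. The genes were chosen on T and DF. This set DF low and T high in the higher set, and T low and DF high in the lower set. DM had no part in the choice. It lay at 38.2 to 1898 RPKM in the higher set and at 0 to 112 RPKM in the lower set.

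The 20 largest differences in each direction were also set beside DM. In the higher set, DF ranged from 0 to 2.95 RPKM with a median of 0, and T from 249 to 9714 RPKM with a median of 429. DM, which had no part in the choice, ranged from 38.2 to 1898 RPKM with a median of 125. Its range lay above that of DF, which the choice itself held low. Over all genes compared, DM had a median of 4.34 RPKM and quartiles of 1.35 and 14.8 RPKM. The higher set was chosen for high values in T, so all genes compared are no matched baseline for it. In the lower set, DF ranged from 63.3 to 5343 RPKM with a median of 472, and T from 0 to 34.6 with a median of 1.45. DM ranged from 0 to 112 RPKM with a median of 4.66, and its range overlapped that of DF as well as that of T. These ranges pool different genes. The highest value in DM was that of CGI_10022468, which had 5343 RPKM in DF. Recovered lengths had medians of 882 nt in the higher and 891 nt in the lower set. They ran from 45 to 2628 nt in the higher set and from 39 to 7236 nt in the lower set. Reads were as few as 43 in T in the higher set and 7 in DF in the lower set.

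Counts of 0 were about as frequent in DF as in T. Of the genes compared, 497 (3.34%) had 0 reads in DF and 525 (3.53%) had 0 reads in T. The filter on the mean made all of them at least 2-fold different. Most rested on few reads, with a median of 3 reads in T for the first and 2 reads in DF for the second. Among the genes at 0 in DF, 121 had at least 10 reads in T, 53 at least 50 and 33 at least 100, up to 2032 reads. Among the genes at 0 in T, 37 had at least 10 reads in DF, 7 at least 50 and 1 at least 100, with 153 reads. The floor of 3 reads used here for a count of 0 is 1.66 RPKM in DF and 1.40 RPKM in T for a gene of 1 kb. Genes with many reads in T and none in DF were more numerous than the reverse, where the read total of T was 1.18 times that of DF. All of these genes passed the filter through a single library, so their counts are a description only. Of the 53 genes at 0 in DF with at least 50 reads in T, none had 0 reads in DM, where their median was 34 reads. The same held for the 7 genes at 0 in T with at least 50 reads in DF, whose median in DM was 2 reads. Over all genes compared, 1385 (9.30%) had 0 reads in DM. That share includes many genes with few reads, whereas the 53 and the 7 were chosen for at least 50. The shares are therefore not matched for reads, and no conclusion is drawn from them.

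In DM, which had no part in the calls, the higher and the lower genes had similar levels. The 1517 higher genes had a median of 8.16 RPKM in T, 1.07 in DF and 2.61 in DM. Their quartiles in DM were 0.638 and 9.22 RPKM, and 300 of them had 0 reads there. The 2846 lower genes had a median of 11.0 RPKM in DF, 2.74 in T and 2.63 in DM, so that as deposited their median in DM lay beside that in T. This closeness depends on the scale. The median ratio of T to DM, over genes above 0 in both, was 0.53 on the log2 scale and was not removed here. The 10523 uncalled genes had medians of 9.58 in DF, 8.34 in T and 5.28 in DM, since values in DM were lower for most genes as deposited. The higher genes held 9.05% of all reads in T, 3.82% in DM and 1.74% in DF. The lower genes took 10.1% in DF, 2.59% in T and 2.65% in DM.

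**Figure D5:**
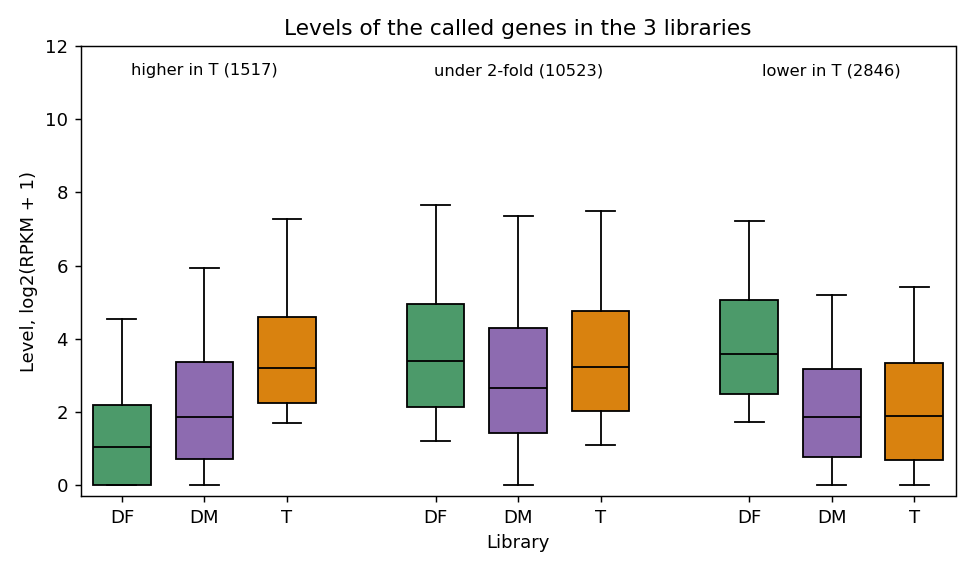
Levels on log2(RPKM + 1), as deposited, in DF, DM and T for the genes higher in T (1517), under 2-fold (10523) and lower in T (2846). Boxes show the quartiles and the median, and whiskers the 5th and 95th percentiles over genes.

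Coding length, recovered together with the reads, ran from 18 to 30744 nt with a median of 978 nt in the genes compared. It is a lower limit, since the smallest length giving whole reads was taken, and genes with few reads can come out too short. The share of called genes fell with recovered length, and an effect of length was not separated from this. In the quartile of shortest genes, up to 525 nt, 15.8% were higher and 25.5% lower, and in that of the longest, above 1659 nt, 6.64% were higher and 11.9% lower. The median number of reads in T and DF together was 13 in the former and 58 in the latter. Among genes with at least 200 reads this order was gone, with 5.80% higher and 9.57% lower among the shortest and 8.29% and 11.0% among the longest.

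The same rule was applied to the other pairs of libraries to place these counts. Each pair shares a library with T against DF, so the counts are given side by side only. T against DM had 3604 higher (26.2%) and 684 lower genes (4.97%) of 13752 as deposited, and 2085 (15.2%) and 1429 (10.4%) after scaling. DM against DF, both diploid, had 776 higher (5.45%) and 5411 lower genes (38%) of 14229, and 1823 (12.8%) and 2759 (19.4%) after scaling. In all, 29.3% of genes were called in T against DF as deposited and 26.8% after scaling, against 43.5% and 32.2% between the diploid libraries. With 1 library for each label, a difference of T from DF cannot be told apart from a difference between individual samples, or from whatever F and M stand for.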

How the data were processed

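Per the labels' protocols, poly(A) RNA of adductor muscle was made into libraries with an Illumina gene expression kit and sequenced, with 1 library for each of DF, DM and T. The authors deposited RPKM values, 1 table per library; the submitters' processing notes list TopHat, while the build, the annotation and the counting step are not stated in the material at hand. RPKM divides by gene length and read total, so an abundant gene in 1 library lowers all others there.

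From these values, read totals were recovered with Python 3.11.15, numpy 2.4.6 and scipy 1.17.1. Totals were those giving coding lengths in multiples of 3 nt, and 100% of 19931 genes above 0 then had whole reads. Of 3 candidate sets, the one whose reads came closest to its totals was taken (97.5% in DF, 97.6% in T); reads are a lower limit, since a common factor with length cannot be seen. The steps were also run on simulated reads with counting noise only. These hold no variation between animals or preparations, so the run does not bear on such variation. Genes averaging at least 1 RPKM over T and DF were compared on log2(RPKM + 1), with 2-fold as the limit, on the deposited values and with median-of-ratios scaling. No test was possible with 1 library a side. Identifiers named are the largest difference and the largest change in RPKM among called genes in each direction, at most 2 each way since none has a gene name. For the same reason lists of contractile, ribosomal, metabolic, stress, matrix, cell cycle and other-tissue genes, given by product, were not used. The comparison and its rules were chosen with earlier results of these data known.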

Additional observations from a re-analysis of the deposited data

How the results depend on the processing

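Counts are given as higher then lower genes in T, against 1517 and 2846 as reported. A pseudocount of 5 gave 653 and 1241, a mean of at least 10 RPKM 479 and 1185, a fold limit of 1.5 2400 and 5052, a fold limit of 4 601 and 699, and the counting interval 857 and 1872. Median-of-ratios scaling with a pseudocount of 5 gave 832 and 884, with a mean of at least 10 RPKM 607 and 836, with a fold limit of 4 691 and 555, where higher genes outnumbered lower ones, and with the counting interval 1248 lower genes. At least 20 reads in T and DF together, a limit chosen after seeing the data, gave 691 and 1558. Stricter filters compare fewer genes and other fold limits move the limit itself; the cause of the other changes was not tested. Of 32 such counts, 13 stayed within 1.5 times the reported ones. The median difference, -0.25 as reported, was -0.026 after median-of-ratios scaling over T and DF, 0.018 over all 3 columns, 0.030 with trimmed mean scaling and -0.087 with equal sums without the 20 most abundant genes, so its sign depended on the scaling. The median absolute deviation was 0.35 with a pseudocount of 5. The 4 genes named by rule stayed at least 2-fold different on the same side in all 36 recomputations, which their choice for large differences favours. Filter settings change only which genes enter and could not alter these values. The smallest difference in any recomputation was 6.93 in size on the log2 scale, so this outcome says little about robustness. Depth limits low genes: 1 read in a gene of 1 kb is 0.554 RPKM in DF and 0.468 in T. No paired analysis was possible because there is a single sample per group.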

Other observations

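Genes with large differences had consecutive identifier numbers more often than all genes compared, although most had no such neighbour. What the numbering follows is not given in the sources used here. Of the 154 genes at least 16-fold higher in T, 135 had a compared gene at the number before or after, and in 22 of these (16.3%) such a neighbour was also at least 16-fold higher. Over all 12385 genes with a compared neighbour, 202 (1.63%) had a neighbour of this kind. Of the genes at least 16-fold lower in T, 8 of 69 (11.6%) had a neighbour that was also at least 16-fold lower, against 94 of 12385 (0.759%).

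At the 2-fold limit the shares lay closer to those of all genes. After median-of-ratios scaling, 26.4% of the higher genes with a compared neighbour had a higher neighbour, against 16.2% of all genes, and 25.5% of the lower genes had a lower neighbour, against 19.3%. As deposited these shares were 21.9% against 13.3% for higher genes and 29.7% against 25.6% for lower genes. Of the higher genes as deposited, 22.7% had a neighbour called lower, against 25.6% of all genes. For the lower genes a higher neighbour was found in 11.9% against 13.3%. After scaling these opposite shares were 16.4% against 19.3% and 13.9% against 16.2%. The longest runs of consecutive numbers held 4 higher genes and 5 lower genes. Neighbouring pairs count each other, so the genes are not independent, and reads shared between near-identical copies were not tested.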
